A study of Homo sapiens with 6 samples.

Results

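The short arm of chromosome 5 was described from ATAC-seq peaks of MCF-10A, a non-tumorigenic human breast epithelial cell line. ATAC-seq marks open chromatin by where the transposase Tn5 cuts DNA. Taken were all peaks of chromosome 5 whose midpoint lay below 46 Mb in hg38, which came to 3769 of the 295073 peaks in the 3 lists. The arm held 1055 peaks in cells with PIK3CA E545K, 1225 in cells with PIK3CA H1047R and 1489 in parental cells with wild-type PIK3CA (WT). PIK3CA encodes the catalytic alpha subunit of PI3K, and both mutations are common activating changes in breast tumours. The mutations had been introduced earlier by knock-in, and how many clones stand behind each line was not stated. E545K and H1047R cells were kept without epidermal growth factor (EGF), whereas WT cells were kept with 20 ng/ml EGF. All cells had insulin, hydrocortisone and cholera toxin, and all spent their last 24 h in 1% stripped serum with 0.2 ng/ml EGF, so genotype and maintenance medium cannot be told apart. Each genotype had 2 samples, and the authors called peaks on both together, which leaves 1 list per genotype with no value per sample. The arm was chosen by the lower peak areas and peak numbers of the knock-in lists in these same data, so every difference below describes 3 lists, without a test and without a replicate check.

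Open chromatin marks promoters, where transcription starts, and distal elements such as enhancers, where sequence-specific factors bind. In breast epithelial cells distal elements often carry the letters bound by AP-1, the Fos and Jun family of factors induced by growth factor signalling, and by TEAD factors, the DNA-binding partners of YAP. The short arm carries receptors of cytokines and hormones (OSMR, LIFR, PRLR, GHR), the mTORC2 subunit RICTOR, which acts on AKT below PI3K, Iroquois homeobox genes and a group of cadherin genes lying in wide gene deserts.

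The summits of 8 peaks that show the patterns described below are given as the deposited summit base with 100 bases on either side, from the plus strand of hg38, with AP-1 letters (TGANTCA) or TEAD letters (GGAATG, or CATTCC on the other strand) in capitals. They are single examples of elements that differed between the lists, and of one that was strong in all of them.
ADAMTS16 intron, in WT and in neither knock-in list, chr5:5165519-5165719: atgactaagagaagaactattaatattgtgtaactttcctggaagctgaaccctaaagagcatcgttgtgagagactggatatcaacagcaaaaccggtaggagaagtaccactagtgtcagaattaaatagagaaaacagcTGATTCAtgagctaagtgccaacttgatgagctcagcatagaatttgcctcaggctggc
Intergenic, 186262 bp from the start of MARCHF11, in E545K and WT and not in H1047R, chr5:15993508-15993708: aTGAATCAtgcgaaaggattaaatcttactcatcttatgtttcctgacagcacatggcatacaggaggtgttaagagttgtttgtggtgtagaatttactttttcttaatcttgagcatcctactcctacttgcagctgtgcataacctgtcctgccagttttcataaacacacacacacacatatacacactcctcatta
Near IRX4, in H1047R and WT and not in E545K, chr5:1919818-1920018: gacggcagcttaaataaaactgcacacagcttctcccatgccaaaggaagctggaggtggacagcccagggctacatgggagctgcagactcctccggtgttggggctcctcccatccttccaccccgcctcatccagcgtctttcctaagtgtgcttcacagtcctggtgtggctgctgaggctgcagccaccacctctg
ANKH intron, in H1047R and in neither other list, chr5:14859995-14860195: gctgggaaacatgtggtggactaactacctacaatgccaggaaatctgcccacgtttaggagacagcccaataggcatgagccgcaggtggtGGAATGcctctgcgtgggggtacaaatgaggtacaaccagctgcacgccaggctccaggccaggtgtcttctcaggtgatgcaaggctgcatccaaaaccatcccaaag
Gene desert beyond CDH9, in E545K and not in WT, chr5:28355944-28356144: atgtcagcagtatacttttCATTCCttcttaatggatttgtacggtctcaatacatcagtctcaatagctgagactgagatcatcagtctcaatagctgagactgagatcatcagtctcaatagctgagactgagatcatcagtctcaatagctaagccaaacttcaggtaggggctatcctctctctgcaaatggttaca
Near ANXA2R, in all lists, lowest in H1047R against WT, chr5:43009167-43009367: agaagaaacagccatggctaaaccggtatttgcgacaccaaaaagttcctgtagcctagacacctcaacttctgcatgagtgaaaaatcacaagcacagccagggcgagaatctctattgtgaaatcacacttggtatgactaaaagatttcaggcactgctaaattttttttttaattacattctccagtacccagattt
PDZD2 intron, in all lists, highest in E545K against WT, chr5:31937203-31937403: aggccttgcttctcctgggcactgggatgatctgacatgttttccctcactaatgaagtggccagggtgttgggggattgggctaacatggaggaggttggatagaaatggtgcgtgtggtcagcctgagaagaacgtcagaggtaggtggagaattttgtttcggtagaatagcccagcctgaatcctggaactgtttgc
TRIP13 intron, in all lists, highest summit outside promoters, chr5:912535-912735: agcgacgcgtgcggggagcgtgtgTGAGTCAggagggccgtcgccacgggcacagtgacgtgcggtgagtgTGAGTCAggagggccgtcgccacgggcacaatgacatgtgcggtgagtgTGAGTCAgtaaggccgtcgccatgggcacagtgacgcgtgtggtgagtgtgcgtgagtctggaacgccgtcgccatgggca
The WT-only summit window in the ADAMTS16 intron and the one on the side of MARCHF11 each hold 1 AP-1 match. At MARCHF11 it lies at the edge of the window. The summit windows in the ANKH intron and beyond CDH9 each hold 1 TEAD match, and that of TRIP13 holds 3 AP-1 matches. Those 3 lie in near copies of a repeated stretch, and the CDH9 window also holds a repeated stretch. By list, 36.7% to 42.0% of all such windows of the arm held AP-1 letters and 18.1% to 18.9% TEAD letters. Over all autosomes the shares were 32.5% to 36.9% and 16.7% to 18.1%. The summits near IRX4 and ANXA2R and in the PDZD2 intron hold neither. The E545K peak beyond CDH9 also overlapped a peak of H1047R. A match is a description of the sequence and does not show binding.

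Over the 22 autosomes E545K had 89416 peaks, H1047R had 106747 and WT had 98910. Promoters of 9 of 10 basal and 5 of 6 epithelial marker genes had a peak in each list, with none at the canonical starts of TP63 and KRT19. Of 12 markers of immune, endothelial and fibroblast cells, 3 had a promoter peak in all lists (CD14, COL1A1 and COL1A2), SPI1 had one in E545K, CDH5 one in WT, and 7 had none. Their part in the differences below was not tested.

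Peaks on the short arm were fewer in both knock-in lists than in WT. The arm held 22.9 peaks per Mb in E545K, 26.6 in H1047R and 32.4 in WT, while chromosome 5 from 50 Mb to its end, called the long arm below, held 37.3, 42.1 and 37.8. Relative to WT this was 0.709 times as many peaks in E545K and 0.823 times as many in H1047R on the short arm, against 0.987 and 1.11 times on the long arm. On the other 21 autosomes the ratio of E545K to WT lay between 0.835 (chromosome 13) and 0.964 (chromosome 8), and that of H1047R to WT between 1.02 (chromosome 21) and 1.14 (chromosome 7). The ratios of the short arm thus lay below those of every other whole chromosome in both lists. Arms of other chromosomes were not counted singly, and chromosome 5 as a whole had 0.923 for E545K and 1.05 for H1047R. Peaks covered 705 kb of the arm in E545K, 756 kb in H1047R and 978 kb in WT. In each of the 9 windows of 5 Mb from the telomere to 45 Mb both knock-in lists held fewer peaks than WT, at 0.597 to 0.879 times for E545K and 0.709 to 0.931 times for H1047R. Along the 27 windows of the long arm the ranges were 0.845 to 1.39 and 1.01 to 1.37.

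**Figure D1:**
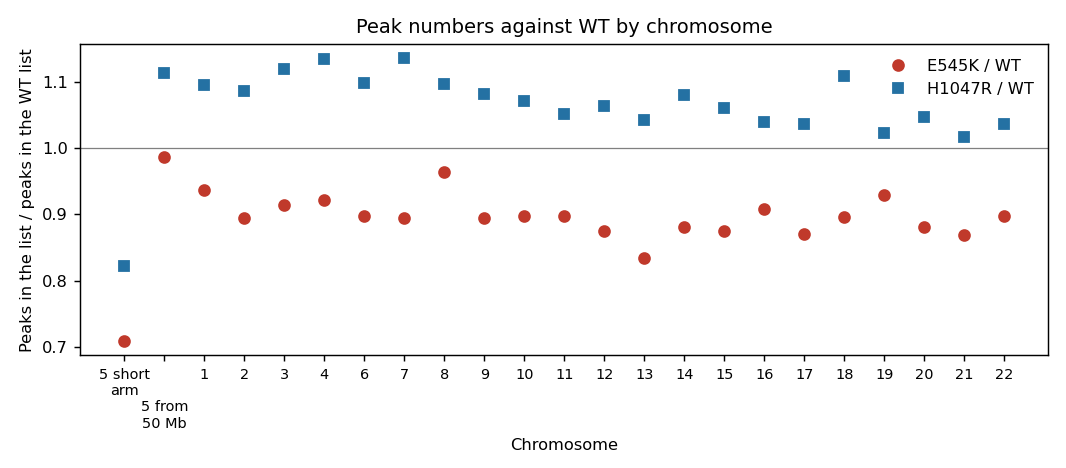
Number of peaks in E545K and in H1047R relative to WT (ratio, vertical axis from 0.7, points) for the short arm of chromosome 5, chromosome 5 from 50 Mb and each other autosome. The short arm lies at 0.709 for E545K and 0.823 for H1047R, below all other points of its list.

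Peak size and place were much alike in the 3 lists. Median width on the arm was 476 bp in E545K, 433 bp in H1047R and 449 bp in WT, and the median area under the peak caller's curve, the authors' measure of a peak's signal, was 558, 594 and 582. Introns held 40.9%, 41.9% and 41.0% of the peaks and intergenic sequence 49.8%, 49.8% and 51.5%. The number at promoters (within 1 kb of the canonical start of a protein-coding gene) was 85 in E545K, 87 in H1047R and 88 in WT. Numbers thus differed mainly away from promoters. The arm is poor in genes, and 39.5%, 40.9% and 43.2% of its peaks lay over 100 kb from any coding start, against 25.7%, 26.8% and 26.5% on all autosomes.

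A peak was taken to have a partner where a peak of the other list overlapped it by at least 1 bp. Of the 1055 E545K peaks on the arm 75 (7.11%) had no partner in WT, where the background over all autosomes was 12.6%, and of the 1489 WT peaks 532 (35.7%) had none in E545K, with a background of 20.3%. Of the 1225 H1047R peaks 117 (9.55%) had no partner in WT (background 17.9%), and of the WT peaks 400 (26.9%) had none in H1047R (background 11%). On the long arm the same shares were 16.4% and 16.8% for E545K and WT, and 19.0% and 9.11% for H1047R and WT. So on the short arm WT peaks lacked a partner more often than on the long arm, and knock-in peaks less often. Between the knock-in lists the arm stood closer to the rest of the genome. There 314 of 1225 H1047R peaks (25.6%, background 23.6%) lacked a partner in E545K and 138 of 1055 E545K peaks (13.1%, background 9.14%) one in H1047R.

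Few of the unpartnered peaks were strong, meaning in the upper 50% of their list by area. Among strong peaks of the arm, 5 of 479 in E545K had no partner in WT (1.04%, background 2.55%) and 43 of 676 in WT had none in E545K (6.36%, background 2.13%). Likewise 12 of 569 in H1047R had none in WT (2.11%, background 2.95%) and 28 of 676 in WT had none in H1047R (4.14%, background 1.4%). On the long arm the shares of strong WT peaks were 1.26% without E545K and 0.856% without H1047R. Between the knock-in lists, 15 of 569 strong H1047R peaks had no partner in E545K (2.64%, background 2.87%) and 11 of 479 strong E545K peaks none in H1047R (2.30%, background 1.6%).

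After overlapping peaks of all lists were joined, the arm held 1644 regions, of which 863 (52.5%) had a peak in all lists, against a background of 61.2%. Regions with a WT peak alone made up 312 (19.0%, Wilson 95% interval 17.2 to 20.9 for counting error), where the long arm had 5.40% and the background was 6.73%. Regions with peaks in both knock-in lists and none in WT numbered 25 (1.52%), where the long arm had 6.24% and the background was 4.62%. Regions of H1047R with WT made up 13.3% (background 9.76%) and those of E545K with WT 5.17% (background 2.13%), while regions of H1047R alone made up 5.54% (background 11%) and of E545K alone 2.98% (background 4.52%). Every pattern that includes WT, other than that of all lists, was thus more frequent on the arm than over all autosomes, and every pattern without WT was less frequent. In 5 Mb windows the WT-only share lay between 11.6% (20 to 25 Mb) and 28.3% (5 to 10 Mb) on the short arm. On the long arm it lay between 2.44% and 11.2% (50 to 55 Mb). The ranges nearly met, at 11 of 95 regions against 20 of 179.

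**Figure D2:**
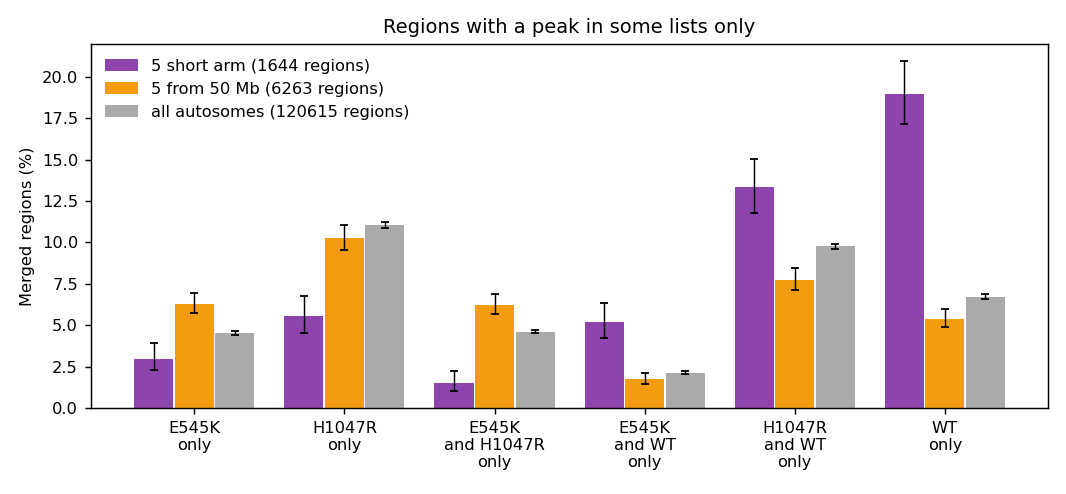
Share of merged regions (percent, vertical axis) with a peak in each combination of the 3 lists, for the short arm (1644 regions), chromosome 5 from 50 Mb (6263) and all autosomes (120615), with Wilson 95% intervals for counting error. WT-only regions make up 19.0% of the short arm and 5.40% of chromosome 5 from 50 Mb.

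WT-only peaks of the arm were small and distal. Their median area was 285 and their median width 296 bp, against 1020 and 631 bp for the 869 WT peaks with partners in both knock-in lists. Of the 312, only 13 were strong, 1 lay at a promoter and 158 (50.6%) lay over 100 kb from a coding start. The strongest, at 5165419 to 5166055, had an area of 2240 and lay in an intron of ADAMTS16, a secreted metalloprotease gene, 25406 bp from its start. It holds the first summit printed above. The next were in an intron of SEMA5A, a semaphorin gene (9440422 to 9440890, area 1088), and in the desert beyond CDH18 (19057715 to 19058554, area 1000).

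Peaks that only one of the knock-in lists lacked reached larger areas. The largest WT peak without H1047R, at 15992887 to 15994173 and 186262 bp from the start of MARCHF11, had an area of 3057, and E545K had a peak there too. The largest WT peaks without E545K lay 36864 bp from the start of IRX4 (1919344 to 1920236, area 2352) and 219005 bp from that of MED10 (6158909 to 6160177, area 2330). In the other direction the largest H1047R peaks without WT lay in introns of ANKH (14859618 to 14860448, area 1308), NPR3 (32714779 to 32715256, area 1254) and DNAH5 (13945980 to 13946776, area 1132). The largest E545K peak without WT, with an area of 1048, lay at 28355488 to 28356198, in the desert beyond CDH9, and H1047R had a peak there too. By nearest coding start, the most strong WT peaks without a partner were 2 each for ADAMTS16 and EXOC3 against H1047R. Against E545K they were 2 each for ADAMTS16, ICE1 and IRX4.

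Regions that were open in all lists also had smaller areas on the arm in the knock-in lists. The DNA copy number of the arm in each line is unknown here, and its part in the peak numbers and areas was not tested. In 818 regions of the arm with exactly 1 peak of each list, the median area was 630 in E545K, 829 in H1047R and 972 in WT, while in 3683 such regions of the long arm it was 715, 888 and 788. WT was the highest list on the short arm and H1047R on the long arm. Region by region, the area in E545K was a median 0.660 times that in WT (quartiles 0.518 and 0.828) and smaller in 709 of 818 regions (86.7%, background 71.7%). The area in H1047R was a median 0.833 times that in WT (quartiles 0.663 and 1.02) and smaller in 597 (73.0%, background 45.7%). Over the long arm the medians were 0.895 and 1.07, and over all 69662 such regions 0.852 and 1.03. The deposited −log10 p of the summit gave medians of 0.810 and 0.897 times WT on the short arm, against 0.924 and 1.01 on the long arm. Peak width gave 0.884 and 0.933, against 1.00 and 1.03.

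Because depth is unknown and a whole list can lie higher or lower than another, areas were ranked within each list over the 69662 regions, from 0 for the smallest to 100 for the largest, and the difference of the percentile ranks is called the shift. The median rank on the arm was 44.4 in E545K, 45.3 in H1047R and 54.9 in WT, against 49.5, 48.4 and 46.2 on the long arm. The median shift of E545K minus WT was −7.69 points (quartiles −17.4 and −0.74), below 0 in 639 of 818 regions (78.1%, all autosomes 52.3%). That of H1047R minus WT was −7.35 points (quartiles −16.0 and −0.68), below 0 in 635 (77.6%, all autosomes 52.0%). Both differences share the WT list. In E545K 342 regions were lower than in WT by over 10 points (41.8%, background 17.7%) and 77 higher (9.4%, background 17.1%), and in H1047R 324 were lower (39.6%, background 18.3%) and 69 higher (8.4%, background 17.6%). H1047R minus E545K had a median of 0.15, with 150 regions lower (background 17.2%, on the arm 18.3%) and 154 higher (background 17%, on the arm 18.8%). On the long arm the medians were 0.80 for E545K minus WT, 0.36 for H1047R minus WT and −0.26 for H1047R minus E545K. On the other 21 autosomes the median lay between −2.37 and 0.70 for E545K minus WT and between −1.49 and 0.73 for H1047R minus WT.

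The shift ran along most of the arm. In 8 of its 9 windows of 5 Mb the median of E545K minus WT was below −5, between −9.36 (35 to 40 Mb) and −6.39 (30 to 35 Mb), where 1.65% of such windows on all autosomes passed −5. The same 8 windows had medians of H1047R minus WT between −8.80 (5 to 10 Mb) and −6.17 (40 to 45 Mb), with a background of 2.2%. The exception, from 25 to 30 Mb, had −0.12 in E545K and −2.13 in H1047R over 33 regions. Both backgrounds count the windows of the short arm and come mostly from them. On the other chromosomes 1 of 509 windows was below −5 in E545K and 4 in H1047R. None of the 27 windows of the long arm was below −5 in either list. Its first window, from 50 to 55 Mb, had −0.18 and −2.02, beside −8.19 and −6.17 in the last one of the short arm, from 40 to 45 Mb. The 7 regions between the limits of the arms had medians of 6.26 in E545K and 1.02 in H1047R. At 1 Mb, 33 of 40 windows of the arm were below −5 in E545K (background 7.98%) and 27 in H1047R (background 9.51%), against 0 and 6 of 121 on the long arm. A median above 0 was found at 20 to 21 Mb (1.31 in E545K, 2.64 in H1047R), at 28 to 29 Mb in both lists, and in H1047R alone at 26 to 27 Mb (1.59) and 44 to 45 Mb (2.2), from 5 to 13 shared regions each.

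**Figure D3:**
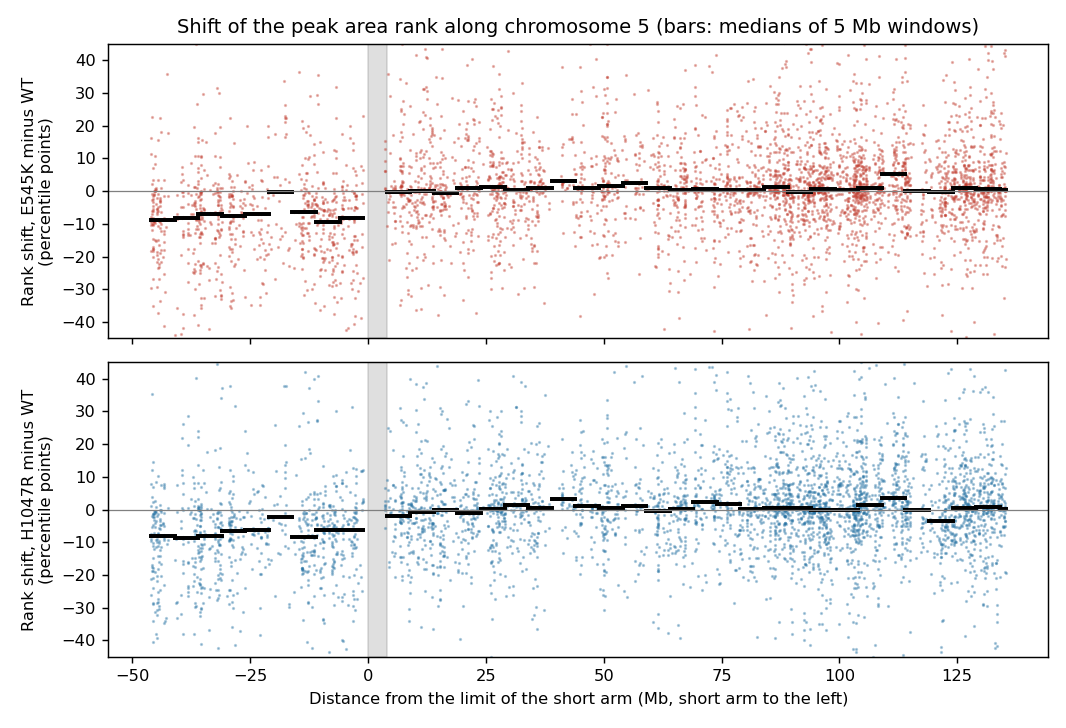
Shift of the percentile rank (points, vertical axis) of every shared region of chromosome 5 by its distance from the limit of the short arm (Mb, horizontal axis), for E545K minus WT (upper panel) and H1047R minus WT (lower panel). Bars are medians of 5 Mb windows, the grey band is the stretch between the arms, and 124 of 4508 regions lie beyond the axis at 45 points. The window medians lie below −5 on the short arm except in 1 window and between −3.54 and 5.16 on the other side of the band.

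Within that window lay a gene desert from 28 to 29 Mb whose first shared region was 1263322 bp from the start of CDH9, a cadherin gene. Here the lists held 16 peaks in E545K, 18 in H1047R and 18 in WT, with median areas of 654, 562 and 369. The 13 shared regions had a median shift of 22.2 points in E545K and 9.72 points in H1047R. The region at 28542808 to 28543751 had an area of 1347 in E545K, 901 in H1047R and 343 in WT. At 28374343 to 28375272, the region with the largest area of the stretch, the values were 3626, 3107 and 3239. E545K was thus above WT at the first and nearer to it at the second. These regions were singled out after their values had been seen.

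Introns and intergenic sequence held most of the shared regions and shifted alike. The median was −9.19 points in E545K and −8.17 in H1047R over 328 intronic regions, and −8.24 and −7.88 over 410 intergenic ones, where the long arm had 0.99 and 0.21 in introns and 1.31 and 0.67 between genes. The few exonic regions had −12.7 in E545K (8 of 9 below 0, all autosomal exonic regions 56.2%). In H1047R they had −17.0 (9 of 9 below 0, all autosomal exonic regions 59.9%). At 71 promoter regions the median was −2.77 in E545K, with 65 below 0 (91.5%, all autosomal promoter regions 54.2%). In H1047R it was −2.53, with 63 below 0 (88.7%, all autosomal promoter regions 47.0%), while 402 promoter regions of the long arm had 0.30 and 0.35. Promoter peaks are mostly at the top of each list, where ranks have little room to move. Over 5 classes by strength, of equal size over all autosomes, the median in E545K was −8.74 in the weakest, −12.8, −12.1, −7.10 and −2.43 in the strongest, and in H1047R −8.50, −11.3, −8.93, −7.45 and −2.71. Each class of the short arm thus lay below 0 in both lists, and those of the long arm lay between 0.08 and 2.78.

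**Figure D4:**
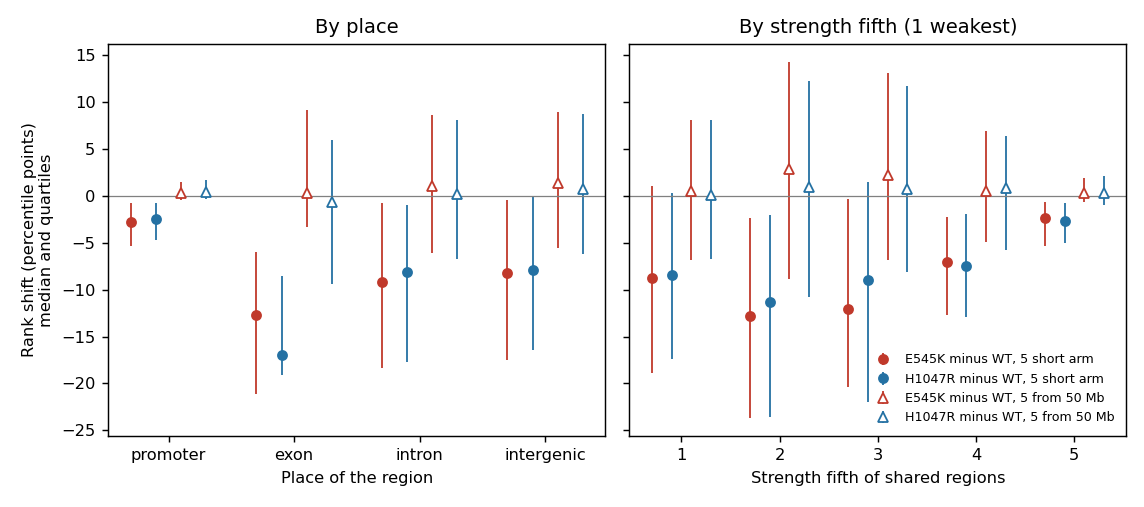
Median shift with quartiles (percentile points, vertical axis) by place of the region and by class of strength, for E545K minus WT and H1047R minus WT, on the short arm (filled circles) and chromosome 5 from 50 Mb (open triangles). Promoters of the short arm lie at −2.77 and −2.53 and introns at −9.19 and −8.17.

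The shift was spread over most genes of the arm. Of 39 genes with at least 5 shared regions nearest to their start, 36 had a median below 0 in E545K (background 49.4% of 3764 genes) and 34 in H1047R (background 51.8%). Medians below −5 were found for 25 genes in E545K (background 15.6%) and for 25 in H1047R (background 18.1%), and H1047R minus E545K was below −5 for 5 (background 16.3%). The median over genes was −7.30 in E545K and −7.91 in H1047R, beside 1.06 and 0.11 for 214 genes of the long arm. CCL28, FYB1, GDNF, MRPS30, NPR3 and PRLR had a median above 0 in at least one of the lists. ANKRD33B, an ankyrin repeat gene (−0.28 in E545K, −2.32 in H1047R, 13 regions), and SUB1, a transcription coactivator (−0.48 and −2.18, 5 regions), came next in E545K. At 97 promoters with a peak in every list, the largest peak was smaller in E545K than in WT at 91 (background 76.3%), with a median ratio of 0.732, and smaller in H1047R than in WT at 84 (background 43.1%), with a median ratio of 0.848. Neighbouring genes shared some of these peaks, so that the 97 promoters had 85 different areas in WT. On the long arm the counts were 341 and 162 of 485.

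**Figure D5:**
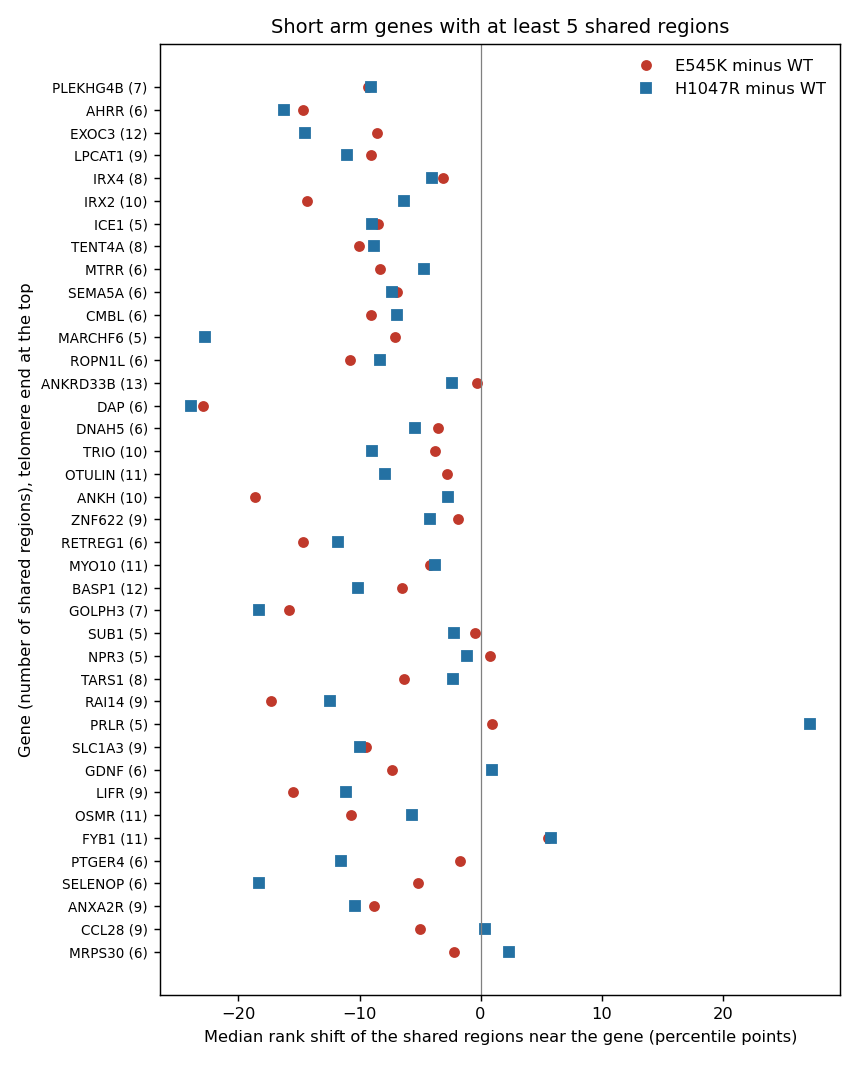
Median shift (percentile points, horizontal axis) of the 39 genes of the short arm with at least 5 shared regions, for E545K minus WT and H1047R minus WT. DAP lies lowest at −22.9 and −23.9, and PRLR and FYB1 lie highest.

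Cytokine, hormone and growth factor genes (11 listed) had 61 shared regions with a median of −7.31 points in E545K and −5.38 in H1047R, 48 and 43 of them below 0. Over all autosomes the medians of all regions were −0.29 and −0.24, with 52.3% and 52.0% below 0, and over the arm −7.69 and −7.35, with 78.1% and 77.6% below 0. The counts of this list and of those below are to be read against the arm, and nothing particular to a list is drawn from them. Promoters of 7 were open in every list, and those of CCL28, FGF10, GDNF and RXFP3 in none. OSMR, the oncostatin M receptor (38845858 to 38945596), had a promoter area of 7638 in E545K, 6719 in H1047R and 10767 in WT. WT was the highest at the promoter, and of 11 regions 9 were lower in E545K and 10 in H1047R, with medians of −10.7 and −5.64. An intronic region at 38905370 to 38906055 stood apart for E545K, with an area of 252 there, 735 in H1047R and 760 in WT. LIFR, its relative in the same receptor family (38474668 to 38608354), had 2655, 3059 and 4084 at its promoter and medians of −15.5 and −11.1. Beyond its 3′ end the region at 38465887 to 38467103 had 857 in E545K, 1409 in H1047R and 2804 in WT.

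IL7R, the interleukin receptor subunit of lymphocytes, had promoter areas of 274 in E545K, 594 in H1047R and 630 in WT. GHR, the growth hormone receptor, had 1971, 2454 and 2780, and PTGER4, a prostaglandin E receptor, had 7164, 6569 and 9166. WT again had the largest area in all of these, but the lower of the knock-in lists was not always the same. Both knock-in lists were below WT at 83.5% of such promoters on the arm and 38.6% over all autosomes. NPR3, the natriuretic peptide clearance receptor, had 638, 999 and 1641 at its promoter. Within NPR3 an intronic region at 32713703 to 32714428 ran otherwise, with 503 in E545K, 1454 in H1047R and 492 in WT.

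PRLR, the prolactin receptor of mammary epithelium (35048756 to 35230487), had the highest median of the 39 genes in H1047R at 27.2 points, over 5 regions, and 0.97 in E545K. Its promoter peak had 345 in E545K, 464 in H1047R and 474 in WT and thus did not share in this. Both knock-in lists were above WT in 2 intronic regions, at 35213627 to 35214328 with 1142 in E545K, 841 in H1047R and 420 in WT, and at 35197813 to 35198583 with 635, 776 and 383. GDNF, a neurotrophic factor gene with no promoter peak in any list, had a median of −7.30 in E545K and 0.95 in H1047R. Of its 6 regions 2 were below 0 in H1047R, the lower being that at 37771264 to 37772192, with 226 in E545K, 479 in H1047R and 1269 in WT. CCL28, an epithelial chemokine, had −4.98 and 0.33 over 9 regions.

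Of the AMPK and mTORC2 genes (3 listed), RICTOR (38937920 to 39074402) had a promoter area of 5583 in E545K, 7933 in H1047R and 8269 in WT. By deposited area H1047R was close to WT there and E545K was lower. By rank the shift was small, at −0.09 in H1047R and −1.92 in E545K. Peaks nearest to RICTOR numbered 4 in E545K, 8 in H1047R and 10 in WT. An intergenic region at 39102278 to 39103062 had 541 in E545K, 1346 in H1047R and 1314 in WT. PRKAA1, the catalytic alpha subunit of AMPK, had 3265, 3840 and 5285 at its promoter. NIM1K, a kinase related to AMPK, had no promoter peak in any list. The 6 shared regions of the list had medians of −5.40 in E545K and −1.27 in H1047R, with 6 and 5 below 0.

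Genes of the cytoskeleton and endocytosis (12 listed) had 79 shared regions with medians of −8.57 in E545K and −7.58 in H1047R, 68 and 65 below 0, and 11 promoters were open in every list. TRIO, a guanine nucleotide exchange factor (14143342 to 14532128), had 10056 in E545K, 9287 in H1047R and 12020 in WT at its promoter. MYO10, the myosin of filopodia, had 5670, 6637 and 6885, and BASP1, a membrane-bound cytoskeletal protein, had 2658, 3151 and 4418. DAB2, an adaptor of clathrin-mediated endocytosis, had the lowest promoter ratio of the arm in E545K, with 534 against 1609 in WT, and 1124 in H1047R.

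DAP, death-associated protein (10679230 to 10761234), had the lowest median of the 39 genes in both lists, −22.9 in E545K and −23.9 in H1047R, and all 6 of its regions were below 0 in each. Its intronic region at 10701916 to 10702613 had an area of 285 in E545K, 301 in H1047R and 798 in WT, and its promoter peak 2469, 2811 and 3952. ANKH, which encodes a protein of pyrophosphate export (14704800 to 14871778), differed between the knock-in lists. Its median was −18.6 in E545K and −2.69 in H1047R, and none of 10 regions ranked lower in H1047R than in E545K. At 14775627 to 14776424 the area was 253 in E545K, 1762 in H1047R and 673 in WT. RAI14, an actin-associated ankyrin repeat gene outside the list, had −17.3 and −12.4, and its intronic region at 34684282 to 34684951 had 323 in E545K, 262 in H1047R and 881 in WT. EXOC3, an exocyst subunit, had 17 peaks in E545K, 14 in H1047R and 22 in WT nearest to its start. Many of these lie in the neighbouring gene AHRR, as do the shared regions given to EXOC3 from 386259 to 436978. Within EXOC3 itself lay 4 peaks in E545K, 5 in H1047R and 5 in WT, and within AHRR 14, 12 and 18.

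Genes of the endoplasmic reticulum and Golgi (4 listed) had the lowest list median in both comparisons, −11.7 in E545K and −18.3 in H1047R, with all 19 regions below 0 in each. MARCHF6, a ubiquitin ligase of the endoplasmic reticulum, had a median of −7.08 in E545K and −22.8 in H1047R over 5 regions. Its intronic region at 10354935 to 10355550 had 649 in E545K, 398 in H1047R and 792 in WT, while its promoter had 6119, 5643 and 6945. GOLPH3, a Golgi protein that binds phosphoinositides (32124716 to 32174319), had −15.8 and −18.3, with all 7 regions below 0 in each list and 4279, 4515 and 5585 at the promoter. RETREG1, a receptor for turnover of the endoplasmic reticulum, had −14.7 and −11.8, and LMBRD2 a single region.

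Iroquois and other developmental genes (8 listed) had 31 shared regions with medians of −6.90 in E545K and −4.71 in H1047R, 25 and 23 below 0. The peaks over IRX4 and IRX2 had the largest areas of the arm in every list. That over IRX4 ran from 1881674 to 1888530 with an area of 16222 in E545K, from 1882029 to 1890310 with 21559 in H1047R and from 1879718 to 1890279 with 27297 in WT. That over IRX2 had 19065, 20061 and 26162. In both the WT peak was the largest, and over IRX4 it was also the widest. A peak in an intron of ZNF131 was among the 5 strongest of the arm in E545K (43063759 to 43067915, area 11947) and in WT (43063768 to 43067929, area 14146). IRX1 differed, with 5063 in E545K, 7109 in H1047R and 6543 in WT. Distal to IRX2, at 2655900 to 2656860, an intergenic region had 278 in E545K, 2030 in H1047R and 1496 in WT. NIPBL, the cohesin loader, had 7115, 8200 and 11397 at its promoter, and ZNF131, a zinc finger factor, 7156, 7334 and 9071.

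Complement and immune genes (7 listed) had 30 regions with medians of −4.64 in E545K and −6.16 in H1047R, 21 and 22 below 0, and C6, C7 and C9 had no promoter peak in any list. FYB1, an adaptor of T cells (39105252 to 39274528), had the highest median of the 39 genes in E545K at 5.58 and one of 5.82 in H1047R, over 11 regions. Its promoter had 923 in E545K, 1087 in H1047R and 508 in WT, and an intronic region at 39231720 to 39232471 had 1117, 1114 and 354, so that both knock-in lists were above WT. AHRR, the repressor of the aryl hydrocarbon receptor (321714 to 438291), had −14.6 and −16.2, with all 6 regions nearest to its start below 0 in each. Its intronic region at 372755 to 374820 had 774 in E545K, 585 in H1047R and 1518 in WT. OTULIN, a deubiquitinase of linear chains, had 4180, 4440 and 4689 at its promoter, and CARD6 698, 689 and 1212.

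Cadherins and adhesion genes (11 listed, of which EMB lay outside the arm) had 8 of 10 promoters without a peak in any list, and 21 regions with medians of −8.91 in E545K and −7.94 in H1047R, 18 and 17 below 0. CDH18 had a promoter area of 508 in E545K, 1007 in H1047R and 688 in WT, and SEMA5A 3366, 3262 and 5241. Solute carriers (7 listed) had medians of −9.49 and −9.49 over 23 regions, 18 and 20 below 0, and 5 promoters without a peak. SLC12A7, a potassium chloride cotransporter, had 1495 in E545K, 338 in H1047R and 793 in WT as the largest peak at its promoter. Against WT these gave the highest promoter ratio of the arm in E545K and the lowest in H1047R, but they came from unlike peaks. In its shared promoter region, at 1110614 to 1112343, the areas were 1495 in E545K, 338 in H1047R and 411 in WT. SLC1A3, a glutamate transporter, had 1051, 1357 and 1636.

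Genes that most cells use had open promoters in every list. All 15 genes of RNA processing, translation and folding, all 16 of mitochondria and metabolism and all 8 of cell cycle, repair and chromatin had a promoter peak in each list. Their medians were −5.32 in E545K and −3.46 in H1047R (49 regions, 43 and 38 below 0), −8.68 and −7.51 (52 regions, 42 and 40 below 0), and −5.44 and −5.43 (18 regions, 15 and 16 below 0). TENT4A, a poly(A) polymerase, had one of the 5 strongest peaks of the arm in H1047R at its promoter, with 8585 in E545K, 9640 in H1047R and 10452 in WT. In the TRIP13 intron, whose summit is printed above, the area was 9342, 8959 and 10323. RPL37, a ribosomal protein, had 5558 in E545K, 5621 in H1047R and 8010 in WT. DROSHA, the nuclease of microRNA precursors, had 3524, 4575 and 5406, and SDHA, a succinate dehydrogenase subunit, 3765, 4396 and 5068. HMGCS1 of cholesterol synthesis had 5829, 6554 and 7831, and RAD1 of the checkpoint clamp 3805, 4556 and 5627. NSUN2, an RNA methyltransferase, was an exception for H1047R, with 6612 in E545K, 7738 in H1047R and 7277 in WT. MRPS30, a mitochondrial ribosomal protein, had 5274, 6199 and 6213. SELENOP, which carries selenium in plasma, had a median of −5.17 in E545K and −18.3 in H1047R.

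Whether a promoter had a peak at all differed little. Of 155 coding genes of the arm 97 (62.6%) had a promoter peak in every list, 51 in none and 7 (4.52%) in some, against 65.5% and 4.55% over all autosomes for every and some. E545K had 0 promoters that WT lacked (background 1.72%) and WT had 3 that E545K lacked (background 1.42%). H1047R had 2 that WT lacked (background 1.78%), DNAH5 and PLCXD3, with areas of 326 and 249. WT had 4 that H1047R lacked (background 1.03%). H1047R had 3 that E545K lacked (background 1.81%) and E545K had 2 that H1047R lacked (background 1.35%). These counts rest on few and mostly small peaks, such as LRRC14B (324 in WT), NKD2 (221 in WT) and MROH2B (270 in H1047R, 233 in WT). At NKD2 an E545K peak of area 209 overlapped the WT peak but ended 1286 bp from the start, outside the 1 kb window.

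PRDM9, a methyltransferase that places meiotic recombination, was the clearest promoter of this kind. Its peak had an area of 2925 in E545K (23506527 to 23507720) and 2154 in WT (23506747 to 23507723), while the nearest H1047R peak lay 19575 bp from the start with an area of 307. ANXA2R was counted as lacking in H1047R only because of the 1 kb window. Its peak began 962 bp from the canonical start in E545K (area 5524), 1098 bp in H1047R (5092) and 966 bp in WT (6399). Nearby, the shared region at 43009082 to 43009953 had the lowest shift of the arm in H1047R, with areas of 489 in E545K, 225 in H1047R and 1793 in WT. At the opposite extreme in E545K was an intron of PDZD2, at 31936838 to 31938261, with 2567 in E545K, 1455 in H1047R and 408 in WT. Lowest in E545K was an intron of ADAMTS16, at 5270951 to 5272007, with 282, 958 and 2233.

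AP-1 letters were found in many summits of the arm in every list. TGANTCA stood in 36.7% of these summit windows in E545K, 42.0% in H1047R and 38.5% in WT, beside 33.8%, 38.3% and 35.9% on the long arm and 32.5%, 36.9% and 34.4% on all autosomes. The order between the arms depended on the window, since whole peaks held it in 44.8%, 50.9% and 47.5% on the short arm and 47.2%, 49.2% and 47.3% on the long arm, which turns the order for E545K. Promoter peaks of the arm seldom held it, with 1 of 85 in E545K (1.18%), 2 of 87 in H1047R (2.30%) and 3 of 88 in WT (3.41%). Promoter peaks of all autosomes also seldom held it, with 4.88%, 5.58% and 5.16%. The 312 WT-only summits held it in 29.5% (92), against 39.9% of the 869 WT summits with partners in both knock-in lists, and over all autosomes the same shares were 28.2% and 34.6%. Of the H1047R-only summits of the arm 41 of 91 held it (45.1%, all autosomes 44.3%), and of the E545K-only summits 10 of 49 (20.4%, all autosomes 13.2%). TEAD letters (GGAATG) stood in 18.9%, 18.1% and 18.8% of all summits of the arm, and over all autosomes in 17.4%, 16.7% and 18.1%. RUNX letters (TGTGGTT) were in 7.77%, 7.27% and 7.66%, and over all autosomes in 6.49%, 6.24% and 6.05%. Forkhead letters (TGTTTAC) were in 4.83%, 4.49% and 5.17%, and over all autosomes in 3.61%, 3.72% and 3.88%. GATA letters (AGATAA) were in 8.25%, 8.90% and 9.20%, and over all autosomes in 7.68%, 7.94% and 7.83%. All letters were sought on both strands. Median GC content of the windows was 47.8% in E545K, 47.3% in H1047R and 46.3% in WT, and 43.8% in the WT-only summits, as on the long arm (43.8%).

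The limit of the arm lay in a stretch almost without peaks. The last peaks inside it had areas of 222 in E545K, 607 in H1047R and 546 in WT. Outside it the first peaks began at 49599359 in all lists, with areas of 7402 in E545K, 6563 in H1047R and 6783 in WT.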

How the data were processed

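Per the submitters' processing notes, the tools were Trim Galore 0.4.0, cutadapt, FastQC, SAMtools and Genrich 0.6.1, with hg38, and no aligner was named. The authors deposited 1 peak list per genotype, called on both of its samples. The deposited signal value sums the caller's curve over a peak (the area), and the deposited −log10 p belongs to the summit. Both are the authors' values. They were compared by rank within a list or, as a description beside the same value over all autosomes, as a ratio between lists. Areas of single peaks and promoters are also printed side by side as deposited, although the scaling between lists is not stated. Over all autosomes the area was smaller than in WT at 76.3% of promoters in E545K and 43.1% in H1047R, so single areas are to be read against these shares. Depth and values per sample are unknown, so no test was made, and intervals cover counting error only.

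Analyses ran in Python 3.11.15 (pandas 2.3.3, numpy 2.4.6, matplotlib 3.10.9, scipy 1.17.1) with canonical transcripts of GENCODE release 44. Regions were given to the nearest coding start within 100 kb. A background is the same share over all autosomes. Of 6 overlap counts repeated with bedtools 2.31.1, 0 differed, and the counting was tested on simulated data. The text names the 5 strongest peaks of each list, genes with at least 2 strong unpartnered peaks, the 5 highest and 5 lowest genes per comparison, promoters open in some lists only, up to 4 members per gene list, RICTOR, OSMR, and further examples picked after their values were seen. The members and lists were chosen with earlier results of these data known.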

Additional observations from a re-analysis of the deposited data

How the results depend on the processing

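No paired analysis was possible because the lists pool the samples of a genotype and give no value per sample, so no sample could be left out either. In all 36 alternatives for the shifts against WT the median of the short arm stayed below 0 and below that of the long arm. The arm was chosen by its lower knock-in areas in these same data, so this direction is no separate support. The alternatives also overlap. Leaving out 45 to 46 Mb removed none of the 818 regions, and a limit of 40 Mb gave the same 720 regions as leaving out 40 to 45 Mb. H1047R minus E545K stayed near 0 and took either sign, from −0.29 outside promoters to 0.31. Ranked by peak width, the shift was −4.95 points in E545K and −4.73 in H1047R. Outside promoters it was −8.98 in E545K and −8.56 in H1047R, and with overlap of at least 50% of each peak −6.55 in E545K. Leaving out each 5 Mb window in turn gave −7.94 to −7.46 in E545K and −7.57 to −7.18 in H1047R. With peaks of area 400 or more, the arm held 685 peaks in E545K, 842 in H1047R and 981 in WT, 24.2% of WT peaks had no partner in H1047R and 10.1% of E545K peaks none in H1047R. With lists of equal length, the arm held 1055 peaks in E545K, 1031 in H1047R and 1335 in WT, or 0.790 and 0.772 times WT, so that the order of E545K and H1047R turned. The shares without a partner were then 9.48% of E545K peaks and 30.3% of WT peaks between E545K and WT, 7.27% of H1047R peaks and 29.4% of WT peaks between H1047R and WT, and 16.4% of H1047R peaks and 17.5% of E545K peaks between the knock-in lists, where the order turned as well. AP-1 letters within 25 bases of the summit stood in 17.1% of E545K, 19.8% of H1047R and 18.3% of WT peaks of the arm, and whole peaks are given above. Within 2000 bp of a start, E545K had 1 promoter that WT lacked. Depth is unknown, so how far it limits weak peaks cannot be given.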
